A study of Homo sapiens with 8 samples.

Results

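Homeobox genes encode transcription factors that share a DNA-binding domain, the homeodomain, and 99 of them were followed among the 14884 gene symbols measured in 2 human liver-derived cell lines. The genes were chosen by a rule on their symbols that used no measured value, though with earlier results of these data known. The rule took the HOX genes of clusters A to D and the numbered genes of further families. These families were LHX, DLX, MSX, IRX, PITX, MEIS, PBX, ALX, PRRX, CDX, OTX, EMX, GBX, POU, NKX and SIX-type. The 99 genes comprised 27 HOX genes (1 of the A cluster, 10 of B, 7 of C and 9 of D) and 72 genes of the other families. The groups were HepG2 treated with CM272, its DMSO control, LX2 treated with CM272, and its DMSO control, with 2 arrays in each. LX2 derives from hepatic stellate cells, the cells that make scar matrix in injured liver, and HepG2 derives from a liver tumour. CM272 inhibits both the histone H3 lysine 9 methyltransferase G9a and the DNA methyltransferase DNMT1, and was given at 400 nM for 48 h, while controls received 0.1% DMSO for the same time. HepG2 was grown in 10% fetal bovine serum and LX2 in 2%, so line and serum cannot be told apart. Each line is a single line, with no second line of its kind beside it, and the labels do not tell whether replicate arrays stem from separate experiments, so p-values measure the spread between these arrays only.

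HOX genes lie in 4 chromosomal clusters, and their order along a cluster matches the order of the body regions in which they act in the embryo, low-numbered genes towards the head. HOX proteins bind DNA together with the TALE-class homeodomain proteins of the MEIS and PBX families, and adult cells of mesenchymal origin often keep a HOX pattern that records where in the body they arose. In many cells silent HOX genes carry repressive histone marks set by Polycomb complexes, and many homeobox promoters are rich in CpG, the dinucleotide that DNMT1 methylates.

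The values are log2 expression values made by RMA, a procedure that corrects background, normalises between arrays and summarises the probes of each gene. Replicate arrays correlated at r = 0.978 (the CM272-treated LX2 pair) to 0.993 over all symbols. The 2 treated LX2 arrays stood furthest apart, with replicate 1 above replicate 2 by a median of 0.20 log2 units over the 99 genes. The median of all symbols lay between 5.20 and 5.23 on the HepG2 arrays and between 5.53 and 5.58 on the LX2 arrays. Of 16 hepatocyte and hepatoma markers, 14 were measured, and all 14 were above 4 on both arrays of each HepG2 group, where their log2 values summed to 151 to 153, against 57.5 to 59.1 on the LX2 arrays. The 10 measured of 18 stellate cell markers summed to 63.2 to 63.7 in HepG2 and to 76.3 to 77.0 in LX2, although FN1 and CCN2, both matrix proteins of that list, had higher values in HepG2. EHMT2, which encodes G9a, differed by 0.37 (adjusted p = 0.494) between CM272 and control in HepG2 and by 0.02 (adjusted p = 0.962) in LX2, and DNMT1 differed by -0.05 (adjusted p = 0.942) and 0.24 (adjusted p = 0.382) in the same lines. CM272 blocks the enzymes' activity, so these transcript levels are no check of the treatment. Arrays of bulk RNA do not tell fewer expressing cells from less RNA in each cell.

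The first question was which homeobox genes each line uses without the drug. The clearest contrast was in the HOX genes, taking genes with an adjusted p under 0.05. HOXB2 to HOXB9 and HOXB13 of the B cluster and 4 of 7 genes of the C cluster were lower in HepG2. So were the cofactor genes MEIS1 and PBX3, while HOXD1, HOXD3 and HOXD4 were higher there. HOXB2, a hindbrain-patterning gene in the vertebrate embryo, had log2 values of 3.53 and 3.81 in HepG2 control and 9.06 and 9.14 in LX2 control. HOXB3, its neighbour, had 3.56 and 3.84 in HepG2 control, against 7.97 and 7.82 in LX2 control. HOXB4, known for expanding blood stem cells when overexpressed, had 3.26 and 3.43 in HepG2 control and 7.43 and 7.32 in LX2 control. All 3 genes thus stayed under 4 in HepG2 control and above 7 in LX2 control.

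The differences, as HepG2 control minus LX2 control, were -5.43 for HOXB2 (SE 0.18, adjusted p = 3.44e-08), -4.20 for HOXB3 (SE 0.15, adjusted p = 4.79e-08) and -4.03 for HOXB4 (SE 0.19, adjusted p = 1.98e-07), by limma over all 14884 symbols with Benjamini-Hochberg adjustment. On the RMA scale these correspond to values 43.1, 18.3 and 16.3 times lower in HepG2. The HepG2 values lay under 4, a mark used here as a convention for dim genes and not as a detection limit. Folds that involve dim values can be compressed, which was not tested here. The other B genes followed with smaller differences: HOXB5 at -2.70, HOXB7 at -2.49, HOXB6 at -2.48, HOXB9 at -2.33, HOXB13 at -1.59 and HOXB8 at -0.73, all past the threshold of 0.05. HOXB1, the most anterior gene of the cluster, ran the other way. It had 4.72 and 5.04 in HepG2 control, against 3.63 and 4.07 in LX2 control, a difference of 1.03 (adjusted p = 0.0013). All 10 measured HOXB genes therefore passed the threshold between the lines, 9 of them lower in HepG2. Of all symbols 50.8% passed, 34.8% being lower in HepG2.

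HOXD1, the first gene of the D cluster, showed the opposite picture. Its log2 values were 8.05 and 8.09 in HepG2 control and 4.79 and 4.68 in LX2 control, a difference of 3.34 (SE 0.13, adjusted p = 8.16e-08), which is 10.1-fold. HOXD3 followed with 5.59 and 5.32 in HepG2 control, against 3.85 and 4.15 in LX2 control (difference 1.45, adjusted p = 0.000111). HOXD4 was also higher in HepG2, by 0.98 (adjusted p = 0.000385), and its other probe set differed by 1.04 in the same direction. The posterior end of the same cluster did not share this direction: HOXD10 had 5.34 and 5.58 in HepG2 control, against 7.17 and 7.32 in LX2 control (difference -1.79, adjusted p = 0.000133), and HOXD11 differed by -1.02. Of the 9 genes of the D cluster, 3 were thus called higher and 2 lower in HepG2, with 6 differences negative. In the C cluster 4 of 7 genes were called lower in HepG2 and 0 higher, with 6 differences negative. The shares called, 55.6% in D and 57.1% in C, lie near the 50.8% of all symbols, of which 16.0% were higher and 34.8% lower. The C genes were led by HOXC4 at -2.26 (adjusted p = 1.04e-06). HOXC8 differed by -0.99 (adjusted p = 0.000759), while HOXC12 had 5.29 and 5.42 in HepG2 control and 5.06 and 5.22 in LX2 control, a difference of 0.22 that did not pass (adjusted p = 0.230). After quantile normalisation over the 8 arrays the HOXC12 difference was 0.53 and passed (adjusted p = 0.0113). HOXA2, the single gene of its cluster analysed here, had 4.06 and 4.21 in HepG2 control and 5.90 and 5.88 in LX2 control, a difference of -1.76 (adjusted p = 5.26e-06).

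**Figure D1:**
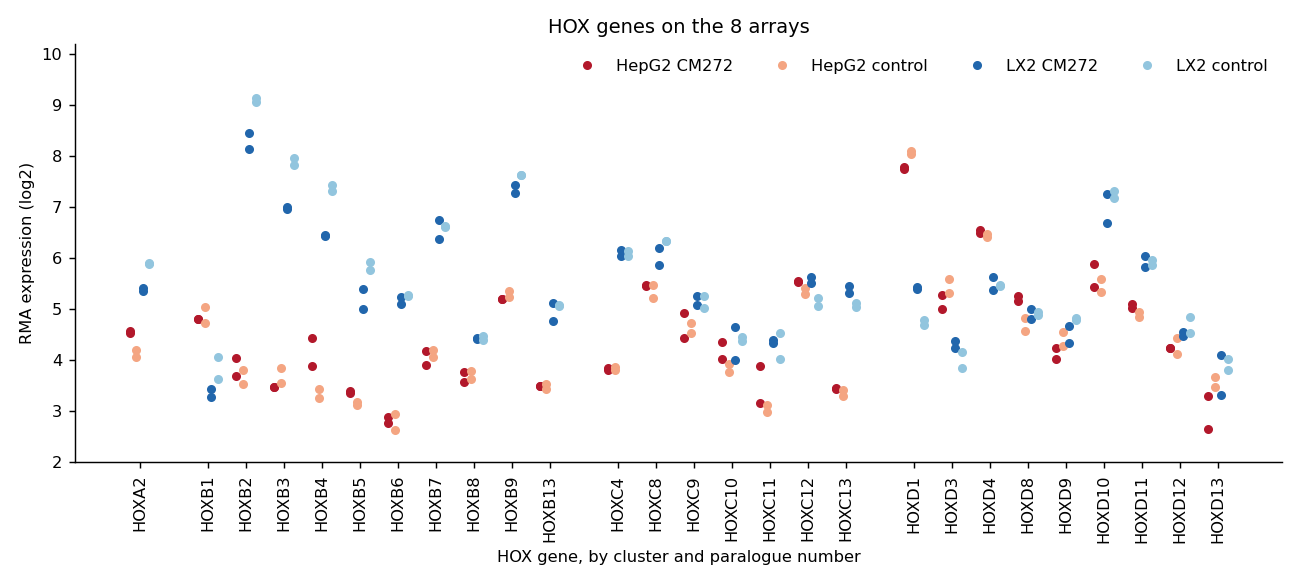
RMA expression (log2, vertical axis) of the 27 HOX genes, ordered by cluster and number, with 1 point for each of the 2 arrays in HepG2 CM272, HepG2 control, LX2 CM272 and LX2 control. HOXB2 to HOXB9 sit lower in HepG2 than in LX2, HOXD1, HOXD3 and HOXD4 sit higher, and in HOXB2, HOXB3 and HOXB4 the treated LX2 points lie below the LX2 control points.

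The partners of HOX proteins differed between the lines as well. MEIS1, which binds DNA beside HOX and PBX proteins, had 4.71 and 4.40 in HepG2 control, against 7.06 and 7.04 in LX2 control. PBX3 had 4.66 and 4.45 in HepG2 control and 6.76 and 6.78 in LX2 control. The differences were -2.49 (adjusted p = 1.81e-06 by limma) and -2.22 (adjusted p = 2.74e-06). Neither gene's control arrays overlapped between the lines, as held for 79.1% of all symbols. MEIS2 was lower in HepG2 by -1.55 on the probe set used (adjusted p = 7.89e-05), but its dimmer probe set differed by only -0.12. PBX4 differed by -1.53 (adjusted p = 0.000266) and MEIS3 by -1.15 (adjusted p = 0.0205), with MEIS3 replicates at 4.17 and 3.52 in HepG2 control. The MEIS3 call was lost without HepG2 control replicate 2, LX2 control replicate 1 or LX2 control replicate 2 (adjusted p up to 0.141), and with quantile normalisation over the 8 arrays (difference -0.85, adjusted p = 0.0788). PBX2 did not pass, at 7.25 and 7.22 in HepG2 control against 6.81 and 6.82 in LX2 control (difference 0.41, adjusted p = 0.0892). It passed with quantile normalisation over the 8 arrays (difference 0.70, adjusted p = 0.0138), with array weights (adjusted p = 0.0216) and without either LX2 CM272 array (adjusted p = 0.0271). IRX3, an Iroquois gene of the same TALE class, was higher in HepG2 by 1.18 (adjusted p = 0.000385).

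Among the families outside HOX and TALE, the largest differences were again lower in HepG2. GBX2, which sets the midbrain-hindbrain boundary in the embryo, had 4.40 and 4.33 in HepG2 control and 6.53 and 6.77 in LX2 control (difference -2.29, adjusted p = 1.86e-05). POU2F2, a POU factor best known from B lymphocytes, had 4.38 and 4.15 in HepG2 control, against 6.05 and 6.25 in LX2 control (difference -1.89, adjusted p = 3.37e-05). The genes that were higher in HepG2 did so by less. PITX1, a hindlimb and pituitary factor, differed by 0.87, POU3F4 by 0.68, the head-patterning genes OTX2 and OTX1 by 0.66 and 0.63, DLX6 by 0.61, the craniofacial gene MSX1 by 0.52 and DLX2 by 0.46, with adjusted p between 0.000877 and 0.0286. OTX2 and POU3F4 were under 4 on all arrays of both control groups, so their differences lie among dim values. Leaving out 1 control array ended several of the smaller calls: those of DLX2 and OTX2 without any 1 of the 4 control arrays, that of MSX1 without either HepG2 control array or LX2 control replicate 1, and those of DLX6, OTX1 and POU3F4 without HepG2 control replicate 2 or LX2 control replicate 2 (adjusted p up to 0.215, for POU3F4).

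In all, 12 of the 99 genes were called higher and 41 lower in HepG2 control, that is 12.1% and 41.4%, where 16.0% and 34.8% of all symbols were called. Calls in either direction came to 53.5% of the homeobox genes and 50.8% of all symbols, so the share of genes that differ is near that of the whole table. The arrays of the 2 control groups did not overlap for 80 of the 99 genes (80.8%, against 79.1% of all symbols), and for all 27 HOX genes. The median difference was -1.02 over the HOX genes and -0.26 over the other 72, against -0.21 over all symbols. The scale of the lines matters for the small differences. After quantile normalisation over the 8 arrays the median of all symbols moved to 0.05, and 19 homeobox genes were called higher and 31 lower, so that 62.0% of the calls were lower in HepG2 instead of 77.4%. The HOX genes then had 16 lower calls and a median of -0.66, and the B cluster 9 lower and 1 higher, whereas the median of the other 72 genes turned to 0.03 and those of the NKX group, the SIX-family, the paired-like genes and the CDX, EMX, GBX and MSX group turned positive too.

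**Figure D2:**
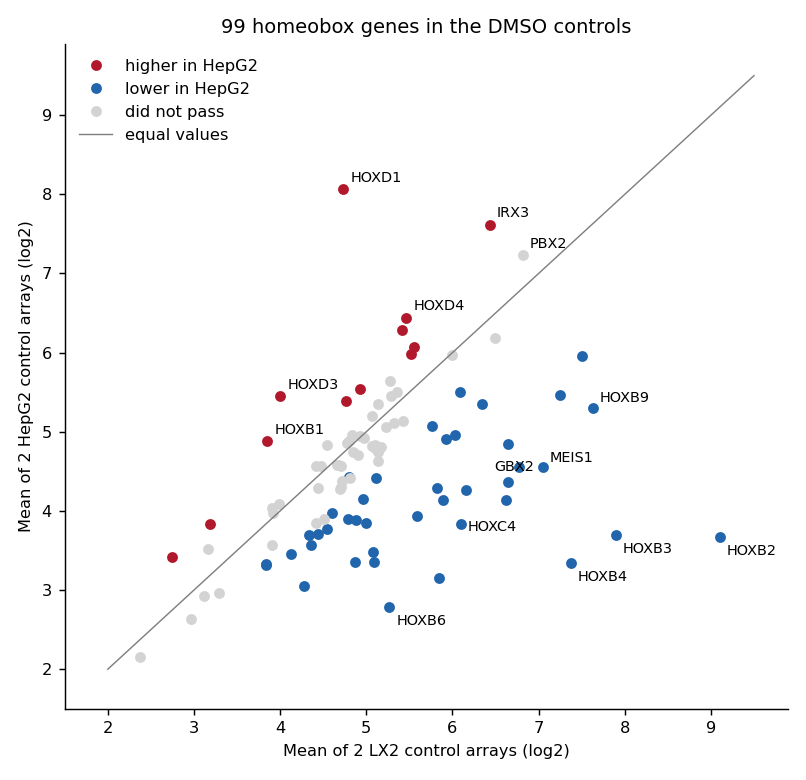
Mean of the 2 HepG2 control arrays (vertical axis, log2) against the mean of the 2 LX2 control arrays (horizontal axis, log2) for the 99 homeobox genes, with the line of equal values. HOXD1 stands above the line by 3.34, and HOXB2, HOXB3 and HOXB4 stand below it by 4.03 to 5.43.

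The second question was what simultaneous inhibition of G9a and DNMT1 did to these genes in LX2. With CM272, HOXB2, HOXB3 and HOXB4, 3 neighbouring genes of the B cluster, fell, and HOXD1, DLX6 and SIX4 rose. HOXB4 had 6.43 and 6.45 in LX2 CM272, against 7.43 and 7.32 in LX2 control. HOXB3 had 7.00 and 6.97 in LX2 CM272 and 7.97 and 7.82 in LX2 control. HOXB2 had 8.46 and 8.15 in LX2 CM272, against 9.06 and 9.14 in LX2 control. Both treated arrays lay below both control arrays for each of the 3 genes, as for 25.4% of all symbols. The treated pair of HOXB2 was the most spread.

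The differences, as CM272 minus control, were -0.93 for HOXB4 (SE 0.19, adjusted p = 0.0293), -0.91 for HOXB3 (SE 0.15, adjusted p = 0.0165) and -0.80 for HOXB2 (SE 0.18, adjusted p = 0.0438), again by limma over all symbols. In fold terms the treated values were 1.91, 1.88 and 1.74 times lower. Of the genes on either side of these 3, HOXB1 differed by -0.50 (adjusted p = 0.157) and HOXB5 by -0.65 (adjusted p = 0.0556), both with treated arrays below control arrays without overlap, and neither passed. From HOXB6 on, the differences were -0.10 for HOXB6, -0.06 for HOXB7, -0.01 for HOXB8, -0.27 for HOXB9 and -0.14 for HOXB13, with adjusted p of 0.312 or more. All 10 HOXB genes had a negative difference, as did 49.6% of all symbols, with a median of -0.38 against 0.00 over all symbols. The uniform sign depended on LX2 CM272 replicate 2. On LX2 CM272 replicate 1 alone, HOXB7 stood at 6.75, HOXB8 at 4.440 and HOXB13 at 5.12. Their LX2 control means were lower, at 6.62, 4.438 and 5.08. Both treated arrays lay below both control arrays for 7 of the 10, against 25.4% of all symbols. HOXB1, HOXB5 to HOXB8 and HOXB13 are given here for their place in the cluster and were picked with their values known. The RefSeq record of HOXB3 overlaps HOXB4, so that the 2 genes may share transcripts and their values need not be independent.

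**Figure D3:**
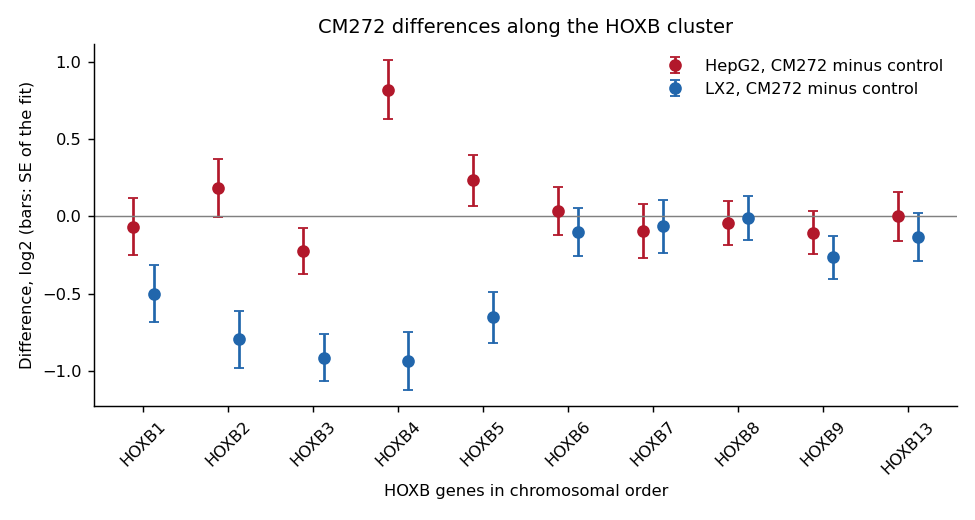
CM272 minus control (log2, vertical axis) for the 10 HOXB genes in chromosomal order, in HepG2 and in LX2, with points for the difference of 2 against 2 arrays and bars for its SE in the fit. In LX2 the differences reach -0.93 at HOXB4 and lie between -0.27 and -0.01 from HOXB6 to HOXB13, and in HepG2 HOXB4 stands at 0.82.

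The 3 genes that rose in LX2 belong to 3 different families. DLX6, a distal-less gene of branchial arch, forebrain and limb development, had 5.83 and 5.74 in LX2 CM272 and 5.05 and 4.81 in LX2 control (difference 0.85, SE 0.16, adjusted p = 0.0249). SIX4, a partner of the EYA coactivators in muscle precursors, had 7.23 and 7.30 in LX2 CM272, against 6.37 and 6.62 in LX2 control (difference 0.77, SE 0.14, adjusted p = 0.0245). HOXD1 had 5.43 and 5.39 in LX2 CM272 and 4.79 and 4.68 in LX2 control (difference 0.68, SE 0.13, adjusted p = 0.0280). None of the 3 genes had overlapping arrays, as held for 49.2% of all symbols. They were picked by the test on these same arrays, so this adds no support. Their folds were 1.80, 1.70 and 1.60. The treated LX2 arrays of HOXD1 still lay more than 2 log2 units under its HepG2 values.

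The promoters of the 3 genes that rose are shown because DNMT1 acts on CpG. No promoter window was available for HOXB2, HOXB3 or HOXB4, so CpG counts were not compared between the genes that rose and fell. The windows are from RefSeq on GRCh38.p14, run 5′ to 3′ on the gene's strand from 250 bases before to 50 bases after the start, and have each CpG in capitals. HOXD1 is chr2:176188418-176188717 on the plus strand, DLX6 is chr7:97005303-97005602 on the plus strand and SIX4 is chr14:60724302-60724601 on the minus strand.
HOXD1: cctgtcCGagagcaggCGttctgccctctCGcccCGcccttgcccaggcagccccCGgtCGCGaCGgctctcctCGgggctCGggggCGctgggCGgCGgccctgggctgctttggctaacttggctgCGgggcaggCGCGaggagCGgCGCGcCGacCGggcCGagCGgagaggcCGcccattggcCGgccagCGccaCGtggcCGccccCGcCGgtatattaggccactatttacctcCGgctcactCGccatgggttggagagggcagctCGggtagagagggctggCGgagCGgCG
DLX6: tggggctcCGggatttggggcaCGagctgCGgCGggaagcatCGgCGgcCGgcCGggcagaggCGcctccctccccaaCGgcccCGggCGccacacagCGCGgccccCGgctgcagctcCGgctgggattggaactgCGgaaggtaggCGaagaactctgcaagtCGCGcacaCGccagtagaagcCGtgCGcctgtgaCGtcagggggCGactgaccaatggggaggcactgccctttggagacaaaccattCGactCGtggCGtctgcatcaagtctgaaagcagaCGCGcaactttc
SIX4: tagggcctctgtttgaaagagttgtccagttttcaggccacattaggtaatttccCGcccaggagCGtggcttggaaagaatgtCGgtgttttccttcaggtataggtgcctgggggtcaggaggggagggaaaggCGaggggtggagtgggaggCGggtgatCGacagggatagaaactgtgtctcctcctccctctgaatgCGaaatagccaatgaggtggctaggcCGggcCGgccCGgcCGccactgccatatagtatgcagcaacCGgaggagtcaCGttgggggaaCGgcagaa
The HOXD1 window holds 36 CpG, a number reached by 12.7% of all 35116 promoter windows. DLX6 holds 30, reached by 22.4% of windows, and SIX4 holds 14, reached by 50.3%. The median was 14 over all windows and 24 over the 77 windows that matched 63 of the 99 homeobox genes, whose counts ran from 4 to 49. The 3 promoters are thus not alike, 2 being CpG-dense and SIX4 at the median. The 3 windows were searched on both strands for short words, and with no match in them no 2 words overlapped. The TATA box word TATAAA, held by 11.5% of all windows, was in none of the 3. The MEIS-binding core TGACAG, held by 15.8% of windows, was in none of them either. The same held for TGATNNAT, the form of a joint HOX and PBX site, which 7.40% of windows hold. No methylation was measured here.

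**Figure D4:**
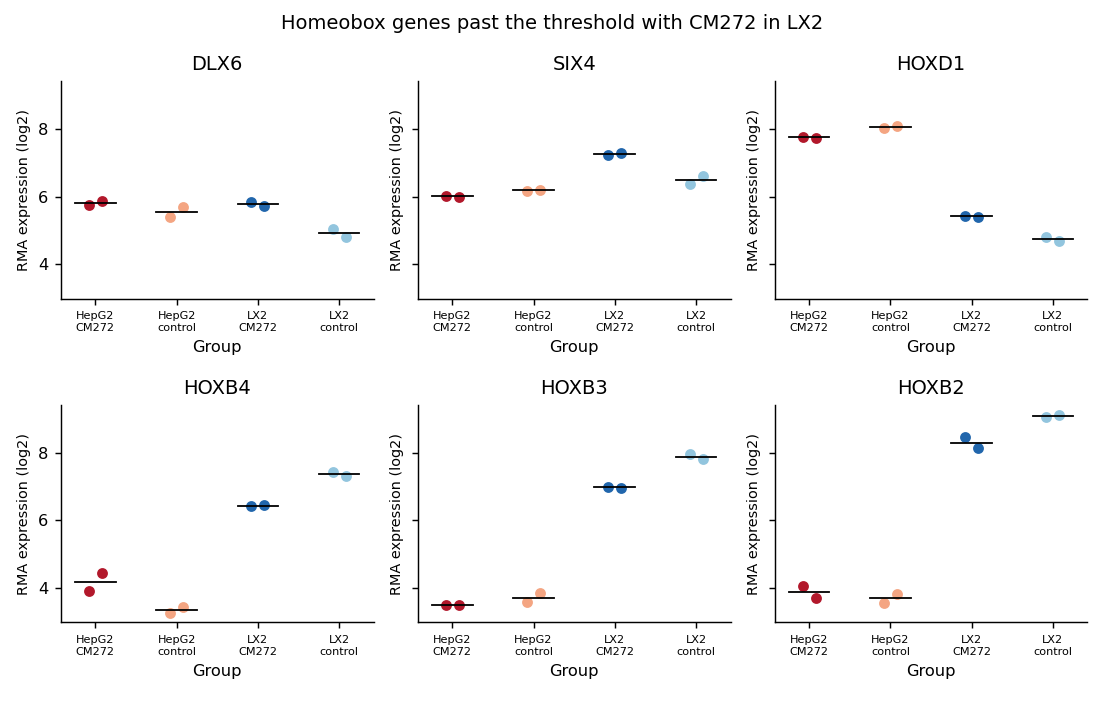
RMA expression (log2, vertical axis) on the 2 arrays of each group for the 6 homeobox genes past the threshold with CM272 in LX2, with the group mean as a line. DLX6, SIX4 and HOXD1 stand higher in LX2 CM272 than in LX2 control, and HOXB4, HOXB3 and HOXB2 stand lower, by 0.68 to 0.93 in size.

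In all, 3 of the 99 genes were called higher and 3 lower in LX2, which is 6.06%, where 5.11% of all symbols were called, 2.43% higher and 2.67% lower. The homeobox genes were thus called about as often as any gene. An unadjusted p under 0.05 was reached by 27 of the 99, 19 higher and 8 lower. Over all 14884 symbols it was reached by 3252, 1453 higher and 1799 lower. Treated and control arrays did not overlap for 52 of the 99 genes (52.5%, against 49.2% of all symbols), 34 above and 18 below, where 23.8% of all symbols were above and 25.4% below. Members near the threshold included PITX3 at 0.75 (adjusted p = 0.0518), POU4F2 at 0.55 (adjusted p = 0.0591), HOXA2 at -0.51 (adjusted p = 0.0655), DLX3 at 0.59 (adjusted p = 0.0682) and GBX2 at 0.74 (adjusted p = 0.0787), named after their values were seen. With symbols under log2 4 filtered out, fewer symbols were tested and PITX3, POU4F2, HOXA2, DLX3 and HOXB5 passed (adjusted p from 0.0358 to 0.0483). The cofactor genes did not pass: MEIS2 had 6.90 and 6.87 in LX2 CM272 and 7.54 and 7.46 in LX2 control (difference -0.62, adjusted p = 0.0823, and 0.0455 by limma-trend), and PBX4 differed by -0.45, PBX2 by -0.21, MEIS1 by -0.11, MEIS3 by 0.09 and PBX3 by 0.03, with adjusted p of 0.266 or more. The 6 calls rest on few arrays. HOXB2 passed in none of the 8 fits that left out 1 array (adjusted p from 0.0551 to 0.249), HOXD1 passed only without LX2 CM272 replicate 2 (adjusted p = 0.0233), HOXB3 passed in 6 of 8, DLX6 in 5, SIX4 in 4 and HOXB4 in 3. Without LX2 control replicate 1 or LX2 control replicate 2, 0 of the 99 genes passed, with adjusted p of 0.132 and 0.123 for HOXB3, 0.111 and 0.204 for DLX6, 0.183 and 0.124 for SIX4, and 0.184 and 0.176 for HOXB4. Without LX2 CM272 replicate 1, DLX6 (adjusted p = 0.0670) and HOXB4 (adjusted p = 0.0828) were lost. Without either HepG2 control array, SIX4 (adjusted p = 0.0518) and HOXB4 (adjusted p = 0.0537) were lost, since all arrays share 1 estimate of the spread. The scaling and the block mattered for HOXB2 and HOXD1. HOXB2 did not pass with quantile normalisation over the 8 arrays (difference -0.69, adjusted p = 0.0914), with quantile normalisation within each line (adjusted p = 0.0887) or with the replicate number as a block (adjusted p = 0.0808). HOXD1 did not pass with the replicate block (adjusted p = 0.0583). With array weights, and with LX2 fitted alone, none of the 6 passed (adjusted p from 0.0586 to 0.116).

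Outside HOX the differences in LX2 leaned upwards. They were positive for 54 of the 72 genes (75.0%, against 50.4% of all symbols), with a median of 0.17, whereas 9 of the 27 HOX genes were positive, with a median of -0.10. All 12 POU genes, all 5 SIX-family genes and 7 of 8 LHX genes had positive differences, but SIX4 was the only one of these families past the threshold. Their medians were 0.08, 0.11 and 0.20. Treated and control arrays did not overlap for 3 of the 12 POU, 1 of the 5 SIX-family and 7 of the 8 LHX genes (6 above, 1 below). These are 25.0%, 20.0% and 87.5%, against 49.2% of all symbols. Only 8 of the 12 POU genes were over 4 on both arrays of at least 1 group. The lean was not shared by every family: 9 of 12 NKX genes, 7 of 9 of the CDX, EMX, GBX and MSX group and 4 of 6 DLX genes were positive, against 6 of 12 TALE genes (median -0.03) and 4 of 8 paired-like genes (median 0.00). This lean depends on 1 array: without LX2 CM272 replicate 1, the brighter of the pair on these genes, 39 of the 72 were positive (54.2%, against 46.2% of all symbols) and the median was 0.05. With quantile normalisation over the 8 arrays 45 of the 72 were positive.

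**Figure D5:**
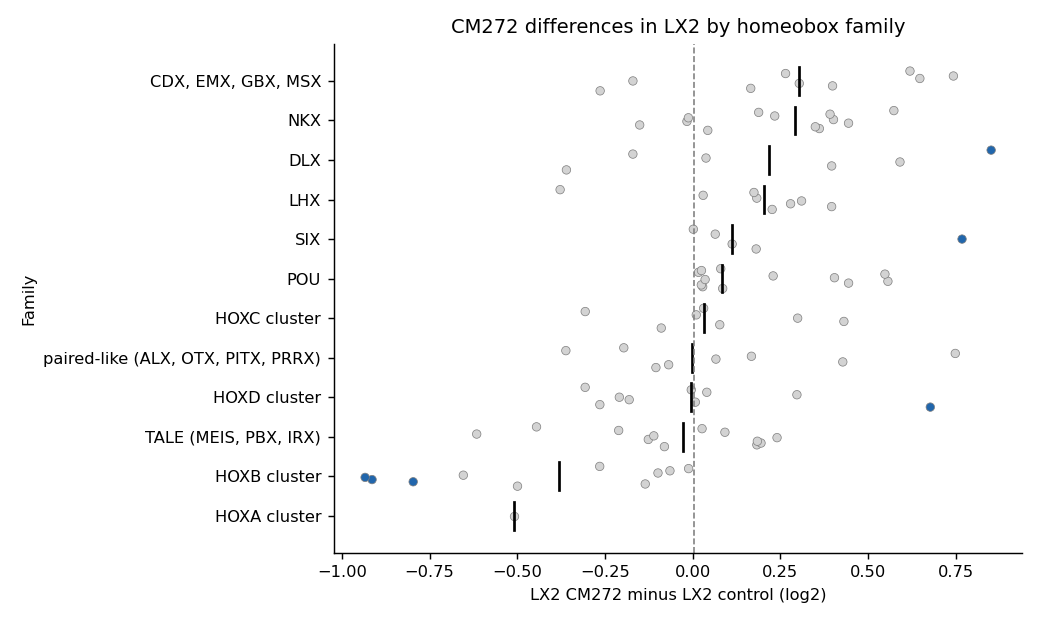
LX2 CM272 minus LX2 control (log2, horizontal axis) for each homeobox gene, by family, with a bar at the family's median, a dashed line at the median of all symbols (0.00) and blue points for the 6 genes past the threshold. The HOXB genes lie at or below 0, with a median of -0.38, and the POU and SIX-family genes lie at or above 0.

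In HepG2, CM272 moved none of these genes past the threshold. The count was 0 of 99 by limma, where 0.0134% of all symbols were called, 0.00672% higher and 0.00672% lower. Before adjustment 7 homeobox genes had p under 0.05, 5 higher and 2 lower, where 1504 of the 14884 symbols did, 687 higher and 817 lower. The arrays of the groups did not overlap for 46 of the 99 (46.5%, against 46.1% of all symbols). The median difference was 0.04, against -0.01 over all symbols. HOXB4 had the smallest adjusted p, with 3.89 and 4.43 in HepG2 CM272 and 3.26 and 3.43 in HepG2 control (difference 0.82, SE 0.19, adjusted p = 0.296). HOXD1, the HOX gene that differed most upwards between HepG2 and LX2, had 7.78 and 7.74 in HepG2 CM272, against 8.05 and 8.09 in HepG2 control (difference -0.30, adjusted p = 0.493). HOXA2 differed by 0.43 (adjusted p = 0.379), HOXB9 by -0.11, HOXC8 by 0.12, HOXC12 by 0.19 and HOXD10 by 0.20. Among the cofactor genes MEIS3 had 4.09 and 5.24 in HepG2 CM272 and 4.17 and 3.52 in HepG2 control, a difference of 0.83 with an SE of 0.35 (adjusted p = 0.472), so its replicates were as far apart as the groups. PBX3 differed by 0.33, MEIS1 by -0.19, MEIS2 by 0.11, PBX4 by 0.10 and PBX2 by 0.02, with adjusted p of 0.517 or more.

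Whether CM272 acted differently in the 2 lines was tested directly as the HepG2 effect minus the LX2 effect, which uses the same arrays as the comparisons above. HOXB4 was the 1 homeobox gene past the threshold, at 1.76 (SE 0.27, adjusted p = 0.0319), and 0 passed with a negative sign, where 0.531% of all symbols were called, 0.128% positive and 0.403% negative. Before adjustment 19 of the 99 homeobox genes had p under 0.05, as did 2238 of the 14884 symbols. The HepG2 values of HOXB4 lay mostly under 4 and those of LX2 above 6, so the difference sets dim HepG2 values, whose own difference did not pass, beside a fall among brighter LX2 values. The HOXB4 call was lost on leaving out any of 6 of the 8 arrays, with an adjusted p between 0.0661 without LX2 CM272 replicate 1 and 0.171 without LX2 control replicate 1, and it was kept without HepG2 CM272 replicate 1 or LX2 CM272 replicate 2. HOXD1 came next at -0.98 (adjusted p = 0.0648), with a negative difference in HepG2 and a rise in LX2, and passed with the brightness filter (adjusted p = 0.041), with limma-trend (adjusted p = 0.0301) and without LX2 CM272 replicate 2 (adjusted p = 0.0454). HOXA2 at 0.93 (adjusted p = 0.0806) and SIX4 at -0.95 (adjusted p = 0.0900, and 0.0411 by limma-trend) did not pass either, nor did HOXB2 at 0.98 (adjusted p = 0.135) and HOXB3 at 0.69 (adjusted p = 0.181). For HOXB2 and HOXB3 an effect of CM272 that differs between the lines was therefore not shown.

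The genes that act around the HOX clusters were examined by list. With CM272 in LX2, 5.11% of all symbols were called and 3252 of 14884 had an unadjusted p under 0.05. Of 24 retinoic acid pathway genes, the pathway that induces HOX genes in the embryo, 7 were measured and 1 rose with CM272 in LX2. That gene, CRABP2, which carries retinoic acid to its nuclear receptors, had 7.69 and 7.72 in LX2 CM272 and 5.80 and 5.97 in LX2 control (difference 1.82, SE 0.21, adjusted p = 0.0044), a call lost only without LX2 control replicate 1 (adjusted p = 0.055). Of 51 Polycomb and Trithorax regulators 38 were measured and 0 passed with CM272 in LX2 (8 at unadjusted p under 0.05), the nearest being the H3K27 demethylase KDM6B at 0.71 (adjusted p = 0.0607). Of 12 other HOX cofactors 8 were measured and 0 passed (2 at unadjusted p under 0.05), with the PBX-binding protein PBXIP1 at 0.74 (adjusted p = 0.0601). Of 26 transcripts listed as non-coding RNAs of the HOX clusters 14 were measured and 0 passed (1 at unadjusted p under 0.05). Of 17 writers and readers that work with G9a and DNMT1, 14 were measured and 1 fell: CBX3, the HP1 protein that binds methylated H3K9, had 6.93 and 7.54 in LX2 CM272, against 8.27 and 8.24 in LX2 control (difference -1.02, adjusted p = 0.0285). The CBX3 call held in 3 of the 8 fits that left out 1 array, those without either HepG2 CM272 array or without LX2 CM272 replicate 2, and its adjusted p reached 0.186 without LX2 control replicate 2. In HepG2 none of the members of these 5 lists passed.

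Between the lines the same lists held more calls, as did the whole table, in which 50.8% of symbols were called. CRABP2 was lower in HepG2 control by -2.02 and the retinaldehyde reductase DHRS3 higher by 1.99. The Polycomb and Trithorax list had 5 genes higher and 15 lower in HepG2 among 38 (52.6% called), with NSD1, an H3K36 methyltransferase, at -3.81, PHC1 of Polycomb complex 1 at -1.93, KDM6B at 1.93 and EZH1 of Polycomb complex 2 at -1.56. Of the cofactor list 2 of 8 genes were higher and 4 lower (75.0% called), led by PKNOX1, a relative of MEIS, at -0.84. Of the transcripts of the HOX clusters 3 were higher and 6 lower among 14 (64.3% called). HAGLR, an RNA from beside HOXD1, had 6.09 and 6.10 in HepG2 control and 4.65 and 4.88 in LX2 control, the direction of HOXD1. HOTAIR of the C cluster had 2.84 and 3.16 in HepG2 control, against 4.47 and 4.87 in LX2 control, the direction of most HOXC genes. HOXB-AS3 of the B cluster differed by -1.03, and PRAC1, a small gene beside HOXB13 that the list also holds, by 1.07. Of the writers and readers 2 of 14 were higher and 6 lower (57.1% called), among them CBX5 at -2.15, MBD1 at -1.20 and DNMT1 at -1.11.

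Markers of cell types were read with CM272 in LX2 beside the homeobox calls. Of all symbols 5.11% were called, and 3252 of 14884 had an unadjusted p under 0.05. Of the 10 stellate cell markers 3 were called (30.0%). The desmin gene DES rose by 1.25 and CCN2 by 0.64, and the collagen-crosslinking enzyme LOX fell by 1.01. Negative differences were found in 7 of the 10, with a median of -0.19. At unadjusted p under 0.05, 2 were higher and 4 lower. The list's summed level was 76.3 on both treated arrays and 76.8 to 77.0 on the control arrays. Of the 6 measured of 10 leukocyte markers 1 was called (16.7%). This gene, the monocyte receptor CD14, rose by 1.12. The list's summed levels were 30.4 to 32.4 in LX2 CM272 and 29.8 to 30.9 in LX2 control. Of the 14 hepatocyte and hepatoma markers 0 passed (4 at unadjusted p under 0.05) and 11 had positive differences, with summed levels of 58.4 to 59.1 in LX2 CM272 and 57.5 to 57.9 in LX2 control. Of the 7 measured of 9 endothelial markers 0 passed, with summed levels of 32.0 to 32.9 in LX2 CM272 and 31.3 to 31.4 in LX2 control. With 1 array left out, DES and CCN2 passed in 0 of 8 fits, CD14 in 5 and LOX in 6 (adjusted p up to 0.269, for DES). Their part in the homeobox differences was not tested.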

How the data were processed

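Total RNA was hybridised to 8 Affymetrix arrays. The authors deposited log2 expression values per probe set made with RMA, per the submitters' processing notes. The RMA version, the array build and whether both lines were normalised together are not given in the sources used here. Where RMA brings arrays to a common distribution, a shift shared by most genes is partly removed, and folds of dim genes can be compressed. The medians of all probe sets still differed here, at 4.19 to 4.25 on the HepG2 arrays and 4.42 to 4.54 on the LX2 arrays. An offset between the lines thus remained in the values.

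Of 48416 probe sets 16098 (33.2%) had 1 symbol in the platform annotation, giving 14884 symbols. The 99 homeobox genes had 110 probe sets, and 7 had several. Each symbol was represented by its brightest probe set, judged by the mean of all arrays. Of the 99, 88 were over 4 on both arrays of at least 1 group, and the other 11, among them CDX4, ALX1 and HOXD13, stayed in the tests as no filter was applied.

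A mean per group was fitted with limma 3.58.1 (R 4.3.3) to all 8 arrays over all 14884 symbols. Tests were two-sided, with Benjamini-Hochberg adjustment over all symbols and a threshold of 0.05. An exact permutation test of 2 arrays against 2 cannot go below 0.333. The fit was tested on simulated data. The members and lists were chosen with earlier results of these data known.

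Named with values were all members past the threshold with CM272 or between the effects, the 12 largest in each direction between the lines, the member of each HOX cluster with the highest mean in each line, every MEIS and PBX gene, EHMT2 and DNMT1, and up to 4 genes past the threshold per list and comparison. Other names were chosen after their values were seen. The main fit did not pair arrays by replicate number. The deviations of same-numbered arrays correlated at 0.05 in each line. With only 2 pairs a line, this cannot tell whether the arrays were paired. Precision is limited by the number of arrays. Figures were drawn with matplotlib 3.10.9.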

Additional observations from a re-analysis of the deposited data

Results flagged for a closer look

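The effect of CM272 on HOXB4 differed between the lines by 1.76 log2 units (HepG2 effect minus LX2 effect, SE 0.27, adjusted p = 0.0319 by limma). The effect was 0.82 in HepG2, which did not pass on its own (adjusted p = 0.296), and -0.93 in LX2, which did (adjusted p = 0.0293). The treated HepG2 arrays stood at 3.89 and 4.43 and the HepG2 controls at 3.26 and 3.43, and the treated LX2 arrays stood at 6.43 and 6.45 and the LX2 controls at 7.43 and 7.32. The HepG2 values are thus mostly dim, under 4. The call was lost with array weights, and with 1 array left out the difference between the lines ranged from 1.49 to 2.03.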

How the results depend on the processing

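With 2 arrays a group the CM272 calls were fragile. In LX2, 3 homeobox genes were called higher and 3 lower. A brightness filter at log2 4 gave 6 and 5, and array weights and a fit of each line alone both gave 0 and 0. A replicate block gave 2 and 2, without HOXB2 and HOXD1. Leaving out 1 array at a time gave 0 to 12 higher and 0 to 3 lower, a group left with 1 array being taken to vary like the others. The lowest counts came without LX2 control replicate 1 or 2 (0 and 0), and the highest without LX2 CM272 replicate 2 (12 and 3). Without LX2 CM272 replicate 1, or without either HepG2 control array, 1 and 1 passed. For the difference between the lines, 1 positive and 0 negative calls became 0 positive with array weights, 1 negative with the filter, 2 negative with limma-trend, and 0 to 2 positive and 0 to 1 negative with 1 array left out. In HepG2 the count was 0 in every setting run. Between the lines, 12 higher and 41 lower became 19 and 31 with quantile normalisation over the 8 arrays. With 1 array left out they ranged from 7 to 14 and from 33 to 47, the 7 arising without HepG2 control replicate 2 or LX2 control replicate 2. None of the 60 homeobox calls over the 4 comparisons changed sign in any setting that tested the gene. Over all symbols, 362 were higher and 398 lower in LX2, against 526 and 751 with limma-trend, 330 and 260 with quantile normalisation over 8 arrays, 108 and 67 with array weights, 201 and 167 with the replicate block, and 89 and 25 with each line alone. With 1 array left out these ranged from 33 to 670 and from 1 to 1261. The all-symbol difference between the lines had 19 positive and 60 negative calls, against 44 and 101 with the filter, 93 and 142 with limma-trend, 7 and 42 with array weights and 5 and 36 with the replicate block. The cause was not tested. Between the lines, HOXB2 (-5.57 to -5.08) and HOXD1 (3.24 to 3.55) passed in every setting run, as did HOXB3 to HOXB7, HOXB9, HOXC4, HOXD3 and HOXD4. HOXB2 to HOXB6 in HepG2, OTX2 and POU3F4 lie mostly under 4, where RMA can compress differences.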

Other observations

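Of 94 homeobox genes outside the families above, 78 were measured. With CM272 in LX2, 2 rose and 0 fell, which is 2.56% called, against 5.11% of all symbols. MIXL1, a gene of mesoderm and endoderm formation, had 4.51 and 4.14 in LX2 CM272, against 3.64 and 3.63 in LX2 control (difference 0.69, adjusted p = 0.0437 by limma). ISL2, a motor neuron LIM gene, had 6.49 and 6.26 in LX2 CM272 and 5.79 and 5.70 in LX2 control (difference 0.63, adjusted p = 0.0432). With 1 array left out, both passed only without LX2 CM272 replicate 2, and their adjusted p reached 0.235 for MIXL1 and 0.263 for ISL2 without LX2 control replicate 2. In HepG2 0 passed, and 7 had an unadjusted p under 0.05, as did 1504 of the 14884 symbols. Between the lines 14 were higher and 24 lower in HepG2 control, that is 48.7% called, close to the 50.8% of all symbols. The strongest were MIXL1, with 8.75 and 8.87 in HepG2 control against 3.64 and 3.63 in LX2 control, and the liver factors ONECUT1 and PROX1, higher in HepG2 by 4.18 and 4.14. HDX differed by -3.70, and ZEB2, a repressor of epithelial genes, by -3.46.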
